A study of Homo sapiens with 8 samples.

Results

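The interaction of FDX1 level and elesclomol was read gene by gene in cells of the established line WSU-DLCL2, which derives from a human diffuse large B-cell lymphoma. It is the difference of 2 differences: the effect of elesclomol (ES) in cells that overexpress FDX1 (FDX1-OE) minus its effect in control cells. RNA sequencing covered 4 groups of 2 libraries each, 8 libraries in all: control cells in DMSO, control cells with 15 nM ES, FDX1-OE cells in DMSO and FDX1-OE cells with 15 nM ES, each for 48 h. The labels give the control genotype as WT and do not say how FDX1 was overexpressed, whether FDX1-OE is 1 clone or a pool, or whether replicate libraries are separate cultures. The p-values therefore measure the spread between these libraries, which may be technical. A gene row entered where it reached 1 FPKM (fragments per kilobase of gene model, scaled to library size) in at least 2 libraries. That rule took 12063 of 60592 rows, a further 32010 rows were at 0 in all 8 libraries, and 16519 lay between. The rows nearest the limit were USF3 and ITIH4 inside it, with a second-highest value of 1.0005 and 1.001 FPKM, and KLRA1P and PLAAT3 outside it, at 0.9986 and 0.9997.

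Elesclomol is a copper ionophore: it binds copper(II) outside the cell and carries it in, to mitochondria among other places. FDX1 is a mitochondrial ferredoxin, a small iron-sulfur protein that passes electrons to partner enzymes, takes part in protein lipoylation, and can reduce the copper carried by elesclomol to copper(I). Copper, zinc and cadmium induce metallothioneins through the transcription factor MTF1, and oxidants and electrophiles induce HMOX1 and other targets of NRF2. Interferon-stimulated genes are switched on by a transcription factor complex that holds STAT2 and IRF9, after interferon binds its receptor.

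ES acted more strongly in FDX1-OE cells than in control cells on most of the genes that responded differently. An interaction is given here on the log2(FPKM + 1) scale, positive where the ES effect lay higher in FDX1-OE cells, and a gene is called where its Benjamini-Hochberg adjusted p over the 12063 rows was below 0.05 in a limma fit of all 8 libraries. 2291 genes were called (19.0%), 1681 higher (13.9%) and 610 lower (5.06%). Of the called genes 1488 rose more in FDX1-OE cells and 433 fell more, 2 moved the same way by less, and 368 had ES effects of opposite sign. The gene lists were drawn up with earlier results of these data known, so their counts are a description. The largest median interaction belonged to antiviral genes: all 41 tested members of a list of type I interferon-stimulated genes were called higher. So were 5 of 5 tested metallothioneins, 16 of 25 NF-kB subunits and targets and 13 of 28 ATF4 targets. Called lower were 63 of 78 cytosolic ribosomal proteins, 13 of 20 glycolysis genes, 12 of 38 nuclear-encoded subunits of respiratory complex I and 14 of 38 of complexes II to V. The filter let in 685 genes only through FDX1-OE ES, with fewer than 2 of the other 6 libraries at 1 FPKM. Such a gene had to differ between the groups: 216 of them were called higher and 0 lower, and without them 1465 of 11378 genes were called higher.

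FDX1 itself checks the labels. It read 10.8 and 10.4 FPKM in control DMSO, 9.88 and 10.0 in control ES, 59.8 and 56.0 in FDX1-OE DMSO, and 60.7 and 59.4 in FDX1-OE ES, so the overexpressing cells held more of its mRNA with and without ES. Its interaction was 0.13 (SE 0.09, adjusted p = 0.325) with a 95% interval of -0.08 to 0.34, and it was called in 0 of the 19 fits run (1 as described and 18 with other settings or without 1 library). Without ES, FDX1 was the one gene called between FDX1-OE and control cells (0.00829%). The variance in that test is pooled over all groups, the wider FDX1-OE ES group included. The DMSO difference made up a median of 5.58% of the interaction among called genes and over 50% of it in 32 of them. With ES, 5008 genes were called between FDX1-OE and control cells (41.5%).

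The FDX1-OE ES libraries stood apart in their totals, which touches every count here. The FPKM summed to 445716 to 451027 in the other 6 libraries and to 408018 and 403024 in these 2, and mitochondrially encoded mRNA gave 16.9% to 17.6% of the sum against 14.7% and 11.9%. They also held more genes at 1 FPKM or more, 11868 and 12047 against 10815 to 11320, and their replicates lay further apart, with a median difference of 0.165 against 0.075 to 0.088 on the log2 scale. FPKM are shares of a library, and in bulk RNA fewer cells of a kind and less RNA per cell cannot be told apart. The median interaction over all genes was 0.15 as deposited, -0.03 after median-ratio scaling, 0.00 after quantile normalisation and 0.27 at equal FPKM totals. The split moved with it: 617 higher and 1297 lower after median-ratio scaling, 686 and 714 after quantile normalisation, and 3466 and 402 at equal totals. Under all 4 scalings 822 genes were called with 1 sign (6.81%), 483 higher and 339 lower. The part of this shift in the result was not tested. Where counts or medians of a list are given below for the 3 other scalings, their order is median-ratio, quantile and equal totals. Counts of list members called in the interaction are to be read against the shares over all genes, 13.9% higher and 5.06% lower.

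**Figure D1:**
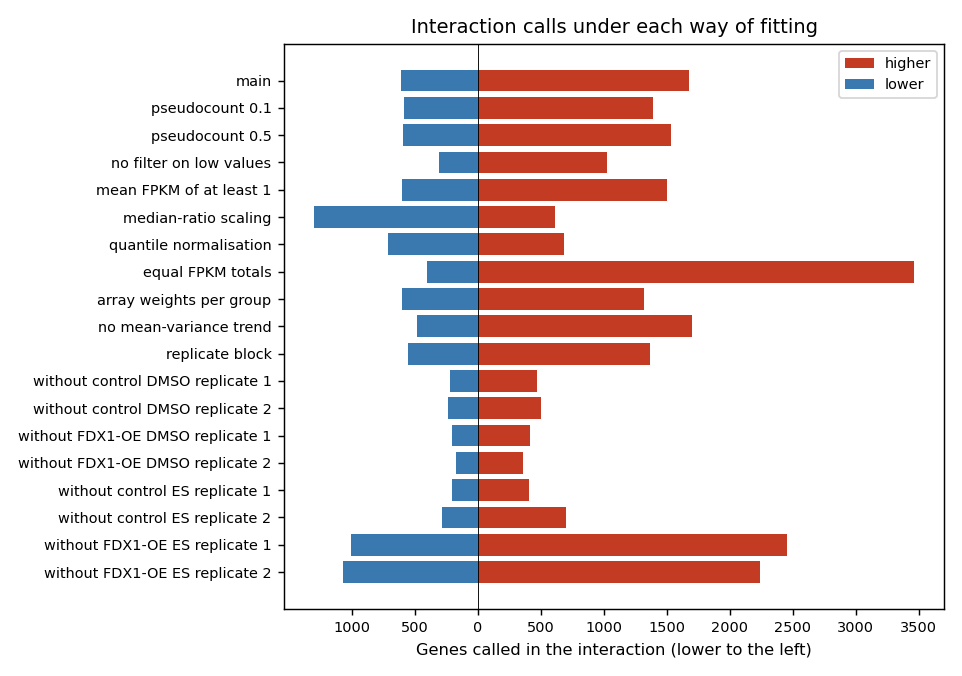
Number of genes called in the interaction (horizontal axis, higher to the right and lower to the left) under each of the 19 ways of fitting, with the one described in the text at the top. Higher calls outnumber lower ones in 17 of the fits, median-ratio scaling gives 617 higher against 1297 lower, and quantile normalisation gives 686 against 714.

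Leaving out a library moved the count further. The plot of calls by setting shows 693 and 732 calls without control DMSO replicate 1 or 2, 623 and 535 without FDX1-OE DMSO replicate 1 or 2, and 615 and 988 without control ES replicate 1 or 2. Without FDX1-OE ES replicate 1 or 2 there were 3462 and 3316, where the remaining library of the group with the widest replicates is assumed to vary like the other groups. Called with 1 sign in every fit that tested them were 413 genes, 285 higher (2.36%) and 128 lower (1.06%). Unless another number is given, a gene named below was called in all 19 fits.

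Set side by side, the 2 ES effects share no library. ES changed 934 genes in control cells (7.74%) and 7334 in FDX1-OE cells (60.8%). The fit gives each gene a common variance over all groups, so both effects carry the same SE. The FDX1-OE ES replicates lay furthest apart, and their spread also enters the test in control cells. How far this moved the counts was not tested. Of the 934, 910 moved the same way in FDX1-OE cells and 881 were called there with the same sign. The median ratio of the effect in FDX1-OE cells to that in control cells among them was 1.82. The interaction was called in the direction of the control effect for 404 of the 934, against it for 23, and not at all for 507. Across all 12063 genes, which are not independent replicates, the effects had r = 0.71, rho = 0.70 and a slope of 1.499. Both FDX1-OE ES libraries lay above the other 6 for 5585 genes (46.3%) and below them for 1741 (14.4%).

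**Figure D2:**
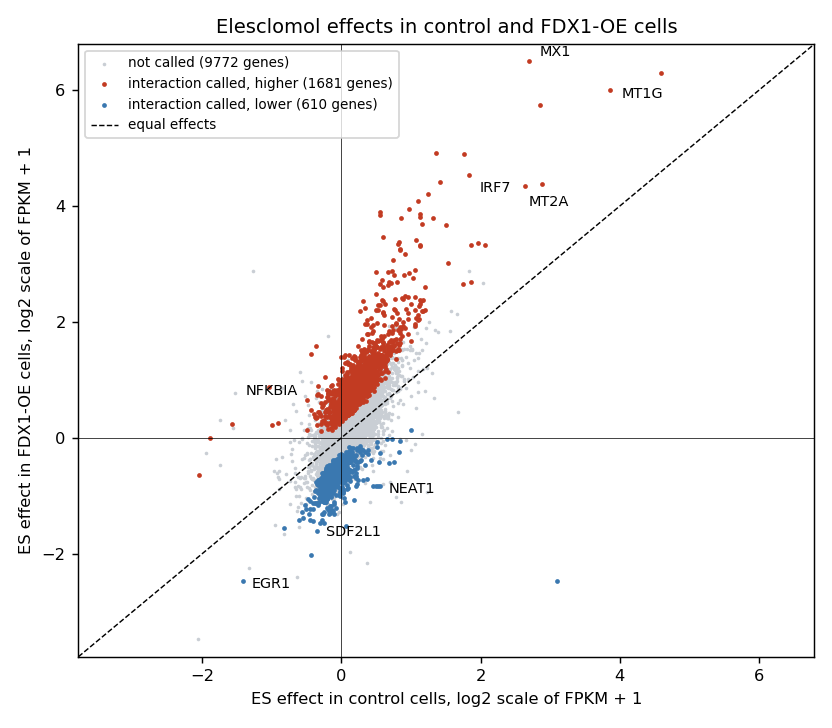
ES effect in FDX1-OE cells (vertical axis) against ES effect in control cells (horizontal axis), both on the log2(FPKM + 1) scale, 1 point per gene; the dashed line marks equal effects. Of the genes called, 1681 lie above the line and 610 below it, and MX1, IRF7 and MT1G rise in both cell types but further in FDX1-OE cells.

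Type I interferon-stimulated genes encode proteins that block viral entry, translation and replication, and they had the largest interactions of any list. All 41 members tested were called higher, 37 of them in every fit, with a median of 2.26 against 0.15 over all genes, and both FDX1-OE ES libraries lay above the other 6 for all 41. As the list was drawn up with earlier results of these data known, these counts describe it and do not test it. Over all genes, that order held for 46.3%. Of the 41, 8 had passed the filter only through FDX1-OE ES, which nearly fixes that order. The other 33 were all called higher, with a median of 2.18. ES called 28 of the 41 up in control cells already (6.74% of all genes; median effect 0.83) and 41 in FDX1-OE cells (47.1% of all genes; median 3.25). The count of higher calls was 41 at equal totals, 40 after median-ratio scaling and 39 after quantile normalisation, and 37 to 41 without 1 library.

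The complex that holds STAT2 and IRF9 binds the interferon-stimulated response element. Its core, GAAA and GAAA with 2 bases between them, searched on both strands in the 250 bases before each RefSeq start (GRCh38.p14), occurred for 21 of the 33 members of the list that matched the table (63.6%). The same letters occurred for 302 of the 8759 tested genes that matched (3.45%) and for 1014 of 27305 genes in the table (3.71%). They occurred for 80 of 1288 matched genes called higher (6.21%) and for 20 of 458 called lower (4.37%). OAS1 and XAF1, whose values are also given below, have no match in their windows. Shown are 3 members with a match, because their values follow; where a gene has more than 1 start, the window with the most matches is given, and capitals mark the core on either strand. They lie at chr1:1013247-1013496, plus strand (ISG15), chr1:78649539-78649788, plus strand (IFI44), and chr2:6877527-6877776, plus strand (RSAD2). In ISG15 the capitals hold 2 overlapping matches. A match describes these letters and is not a measured binding site. The lists searched here and below hold genes of known pathways, so their motif shares describe the lists and not a response to ES.
ISG15: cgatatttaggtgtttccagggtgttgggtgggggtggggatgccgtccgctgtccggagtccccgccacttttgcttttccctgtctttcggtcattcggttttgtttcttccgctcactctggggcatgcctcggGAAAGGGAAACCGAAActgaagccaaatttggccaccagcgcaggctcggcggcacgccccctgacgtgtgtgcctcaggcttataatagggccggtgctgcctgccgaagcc
IFI44: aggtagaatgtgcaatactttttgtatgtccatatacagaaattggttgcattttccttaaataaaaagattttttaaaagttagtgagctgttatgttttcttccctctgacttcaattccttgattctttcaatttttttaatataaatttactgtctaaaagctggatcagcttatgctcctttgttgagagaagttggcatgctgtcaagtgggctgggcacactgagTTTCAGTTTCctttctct
RSAD2: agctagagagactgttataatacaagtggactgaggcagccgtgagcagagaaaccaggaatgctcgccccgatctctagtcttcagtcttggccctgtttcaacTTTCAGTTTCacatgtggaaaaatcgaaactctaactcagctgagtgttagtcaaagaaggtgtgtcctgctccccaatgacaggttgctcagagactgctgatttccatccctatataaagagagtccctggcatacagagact

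MX1, a dynamin-like GTPase that traps viral ribonucleoproteins, had the largest interaction among the named genes. It read 0.0212 and 0.0356 FPKM in control DMSO, 5.96 and 5.35 in control ES, 0.126 and 0.0761 in FDX1-OE DMSO, and 77.9 and 125 in FDX1-OE ES. Control cells with ES thus left the near-zero level of both DMSO groups, and the FDX1-OE ES libraries stood far above all others. The interaction was 3.81 (SE 0.27, adjusted p = 0.000453): adding the separate effects of ES and of overexpression would give 6.12 FPKM in FDX1-OE ES, where the fitted level was 98.6. An antisense gene overlaps MX1, and how the counting treated strands is not given.

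Its relative MX2, which acts on nuclear entry of viruses, was listed at 0 in both control DMSO libraries and read 0.478 and 0.453 FPKM in control ES, 0.0119 and 0.0255 in FDX1-OE DMSO and 10.9 and 18.5 in FDX1-OE ES. It passed the filter only through FDX1-OE ES, as IFI44L did, so the interactions of both are a description: that of MX2 was 3.35, and its ES effect in control cells was 0.55 (adjusted p = 0.128). That p also rests on the pooled variance, and both control ES libraries of MX2 lay above every DMSO library. IFITM1, which blocks fusion of viral membranes, was also at 0 in control DMSO and reached 15.7 and 27.5 FPKM in FDX1-OE ES, with an interaction of 2.998. On this scale a low gene's change is understated, and no fold is given against a group at 0.

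RSAD2, the antiviral enzyme viperin, read 0.0568 and 0.158 FPKM in control DMSO, 1.09 and 1.25 in control ES, 0.0795 and 0.0412 in FDX1-OE DMSO, and 13.0 and 18.2 in FDX1-OE ES. Its 2 control ES libraries were above every DMSO library and its FDX1-OE ES libraries above those. The interaction was 2.98 (SE 0.22, adjusted p = 0.000524). IFI44 and IFI44L, a pair of related interferon-induced proteins, had interactions of 2.99 and 3.29, XAF1, a pro-apoptotic zinc finger protein, 3.56, and USP18, the protease that removes ISG15 from proteins, 3.13. These 4 genes were at most 0.110 FPKM in the DMSO libraries and at least 11.4 FPKM in both FDX1-OE ES libraries.

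Among genes already expressed without drug, ISG15, the ubiquitin-like modifier whose promoter is shown above, read 93.4 and 95.0 FPKM in control DMSO, 127 and 147 in control ES, 93.2 and 99.6 in FDX1-OE DMSO, and 341 and 592 in FDX1-OE ES. The groups did not overlap between FDX1-OE ES and the rest, although its 2 libraries differed widely. The interaction was 1.68 (SE 0.30, adjusted p = 0.0106) and was called in 17 of the 19 fits. The ES effect in control cells was 0.53 (adjusted p = 0.149), although both control ES libraries lay above every DMSO library. Its SE of 0.21 is pooled over all groups, the wide FDX1-OE ES pair included.

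Transcription factors of the interferon response were also called higher. IRF7, which drives interferon gene expression, read 1.90 and 1.77 FPKM in control DMSO, 8.19 and 10.0 in control ES, 2.05 and 1.85 in FDX1-OE DMSO, and 52.2 and 86.8 in FDX1-OE ES. The DMSO libraries of both cell types lay close together, control ES lay above them and FDX1-OE ES above all others, with an interaction of 2.70 (SE 0.29, adjusted p = 0.00208). That was the largest interaction among named genes with a mean log2 level of at least 3. STAT2 had an interaction of 1.52 and its partner IRF9 of 1.96.

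Antiviral effectors that control cells already expressed in DMSO had positive interactions as well. EIF2AK2, the kinase PKR that senses double-stranded RNA, had an interaction of 1.65 (SE 0.11, adjusted p = 0.000453), with 29.2 and 28.5 FPKM in FDX1-OE ES against 8.003 and 8.63 in control ES. OAS1 and OAS3, which make 2'-5' oligoadenylate to activate RNase L, had 1.72 and 2.001. SP110, a nuclear body protein, had 2.004, PLSCR1, a phospholipid scramblase, 1.81, and TRIM22, an antiviral ubiquitin ligase, 1.56. SP110, OAS1, ISG15, EIF2AK2, XAF1 and IRF9 overlap other gene models, most of them antisense, so a share of their reads may belong to those.

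The wider list of interferon production and signalling had 11 of 23 tested members called higher and 0 lower, a median of 0.39, and 5 to 12 higher calls without 1 library. MHC class I and peptide loading, which present peptides to cytotoxic T cells, had 8 of 17 higher and 0 lower with a median of 0.50 (4 to 12 higher without 1 library; 5, 7 and 11 under the 3 other scalings). TAPBP, the loading factor tapasin, read 41.5 and 41.5 FPKM in control DMSO, 45.9 and 48.6 in control ES, 40.5 and 39.4 in FDX1-OE DMSO, and 78.4 and 89.9 in FDX1-OE ES. The ES effect in control cells was 0.18 (adjusted p = 0.166), and its interaction was 0.87 (SE 0.11, adjusted p = 0.00331). The peptide-trimming enzymes ERAP1 and ERAP2 had 0.67 and 0.74, ERAP1 with an overlap to the antisense gene CAST. MHC class II, which presents peptides to helper T cells, had 0 of 13 higher and 1 lower (7.69%, against 5.06% of all genes): HLA-DPB1 at -0.49 (SE 0.12, adjusted p = 0.0297) in 11 of 19 fits, with HLA-DPA1 antisense to it. HLA-DRB1 (-0.27, adjusted p = 0.0781) and HLA-DPA1 (-0.25, adjusted p = 0.0828) missed the threshold, and the median of the list was -0.09 (0 to 3 lower without 1 library; 0, 1 and 1 higher and 5, 1 and 0 lower under the 3 other scalings).

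**Figure D3:**
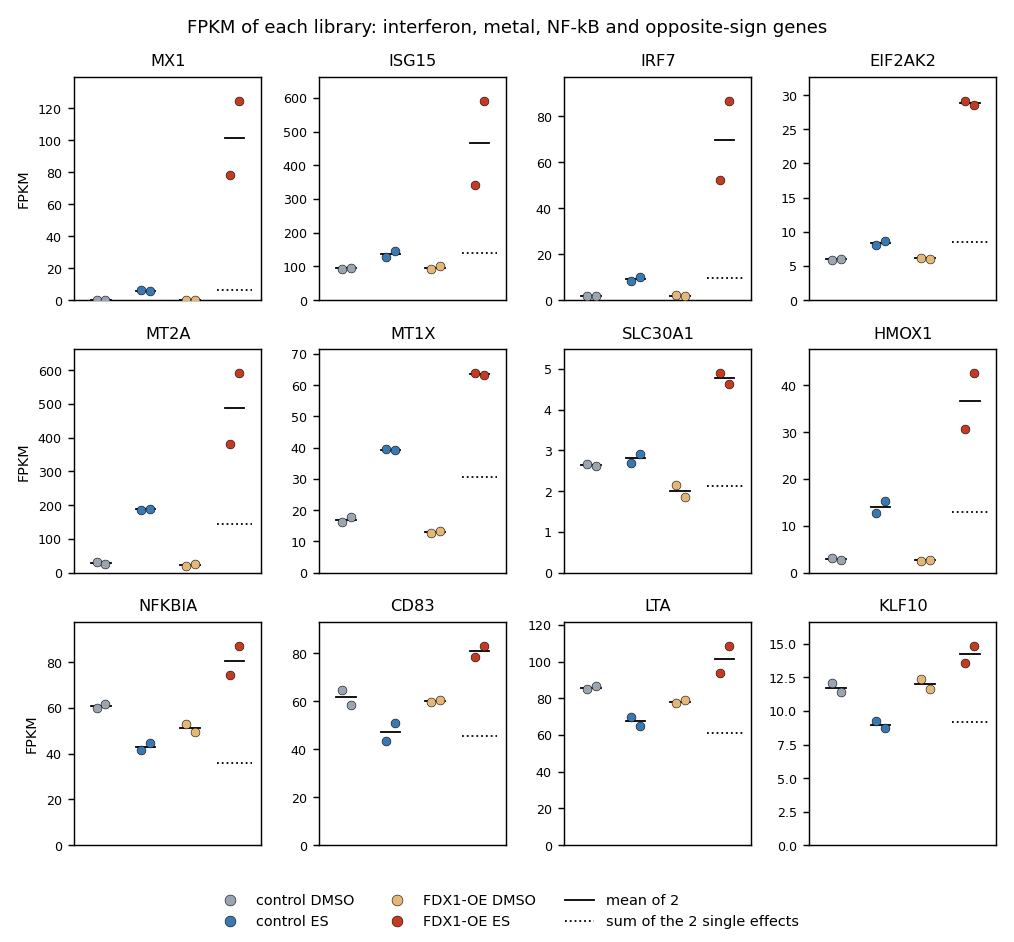
FPKM of each library (points, 2 per group) for 12 genes, with the mean of each group (solid line) and, for FDX1-OE ES, the level that the sum of the separate log2 effects of ES and of FDX1 overexpression would give (dotted line); each vertical axis starts at 0. Both FDX1-OE ES points lie above the dotted line in all 12 genes, and in NFKBIA, CD83, LTA and KLF10 the control ES points lie below control DMSO.

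Metallothioneins, small cysteine-rich proteins that bind copper and zinc, rose with ES in both cell types and further in FDX1-OE cells. 5 of 5 tested members were called higher, with a median of 1.70, median ES effects of 2.64 in control and 4.35 in FDX1-OE cells, and 3 to 5 calls without 1 library. The family shares near-identical sequence, so the split of reads among its members is uncertain. MTF1 binds metal response elements, whose core is TGCAC or TGCGC, then any base, then C; on either strand it occurred in the 250 bases before the start of all 3 members that matched the RefSeq table, against 40.2% of tested genes and 28.5% of all genes in the table. MT2A (chr16:56608334-56608583, plus strand) and MT1X (chr16:56682220-56682469, plus strand) are shown because their values follow, with 7 and 4 matches in capitals.
MT2A: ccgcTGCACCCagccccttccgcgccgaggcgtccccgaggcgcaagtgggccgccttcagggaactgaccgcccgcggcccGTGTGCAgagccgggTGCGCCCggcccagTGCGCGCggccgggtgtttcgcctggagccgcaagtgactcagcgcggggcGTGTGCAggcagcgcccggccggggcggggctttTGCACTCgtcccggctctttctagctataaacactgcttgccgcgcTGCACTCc
MT1X: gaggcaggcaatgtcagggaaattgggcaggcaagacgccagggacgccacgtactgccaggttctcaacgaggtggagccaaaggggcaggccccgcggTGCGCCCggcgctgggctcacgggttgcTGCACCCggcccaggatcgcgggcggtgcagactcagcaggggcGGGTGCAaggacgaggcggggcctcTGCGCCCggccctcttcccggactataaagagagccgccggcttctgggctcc

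MT2A, the metallothionein with the highest FPKM here, read 32.0 and 26.7 FPKM in control DMSO, 186 and 189 in control ES, 19.3 and 26.0 in FDX1-OE DMSO, and 382 and 591 in FDX1-OE ES. Levels stepped up from DMSO to control ES and again to FDX1-OE ES with no overlap. Its interaction was 1.70 (SE 0.29, adjusted p = 0.00906), called in 18 of the 19 fits. MT1X read 16.1 and 17.8 FPKM in control DMSO, 39.4 and 39.2 in control ES, 12.8 and 13.4 in FDX1-OE DMSO, and 63.8 and 63.1 in FDX1-OE ES, with the tightest replicates of the family and an interaction of 1.03 (SE 0.10, adjusted p = 0.00145), and it overlaps an unnamed gene on the same strand. For MT1G the interaction of 2.13 (SE 0.32, adjusted p = 0.00656) includes a difference of -1.10 between the cell types in DMSO, which did not pass the test: it read 1.77 and 2.83 FPKM in control DMSO and 0.625 and 0.416 in FDX1-OE DMSO, then 43.6 and 49.5 and 75.4 and 122 with ES. MT1H had 1.71 (SE 0.33, adjusted p = 0.0134) in 16 of 19 fits. DMSO differences of -0.65 for MT1H, -0.37 for MT2A and -0.35 for MT1X, which did not pass the test either, enter their interactions. The interactions of these genes are therefore not wholly a larger rise above the control ES level.

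Of 15 tested genes of copper and zinc transport and MTF1, 1 was called higher (6.67%, against 13.9% of all genes) and 0 lower, with a median of -0.03 (1, 1 and 2 higher and 2, 2 and 0 lower under the 3 other scalings). The called gene was SLC30A1, which exports zinc across the plasma membrane and carries 1 metal response element core in the window searched. It read 2.68 and 2.63 FPKM in control DMSO, 2.69 and 2.91 in control ES, 2.16 and 1.86 in FDX1-OE DMSO, and 4.89 and 4.64 in FDX1-OE ES. Control ES lay just above control DMSO, with an ES effect of 0.06 (adjusted p = 0.737). The FDX1-OE ES libraries lay above all others, and the interaction was 0.88 (SE 0.14, adjusted p = 0.00782). A DMSO difference of -0.28 between the cell types, which did not pass the test, enters that interaction. SLC39A10, a zinc importer, had -0.49 (adjusted p = 0.0627), and ATP7A, a copper-exporting ATPase whose gene model overlaps PGK1, had 0.44 (adjusted p = 0.105). The pathway in which FDX1 itself works, lipoylation, ferredoxins and iron-sulfur assembly, had 0 of 30 higher and 1 lower (3.33%, against 5.06% of all genes), with a median of 0.06 against 0.15 over all genes (0, 0 and 3 higher and 2, 1 and 1 lower under the 3 other scalings). The 1 was GCSH, the lipoyl-carrying H protein of glycine cleavage, at -0.67 (SE 0.16, adjusted p = 0.025) in 12 of 19 fits. DLST, a lipoylated subunit of oxoglutarate dehydrogenase (0.31, adjusted p = 0.0504), and IBA57, an iron-sulfur assembly factor (0.56, adjusted p = 0.0544), lay just above the threshold.

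NRF2 targets, which counter oxidants, had 6 of 19 higher and 2 lower with a median of 0.26 (1 to 7 higher and 0 to 3 lower without 1 library; 4, 6 and 8 higher and 3, 1 and 1 lower under the 3 other scalings); 1 of the 6 had passed the filter only through FDX1-OE ES. As shares, 31.6% were higher and 10.5% lower, against 13.9% and 5.06% of all genes. HMOX1, which degrades haem, read 3.01 and 2.70 FPKM in control DMSO, 12.8 and 15.2 in control ES, 2.54 and 2.66 in FDX1-OE DMSO, and 30.7 and 42.6 in FDX1-OE ES. ES raised it in both cell types, by 1.96 and 3.37, and the interaction was 1.41 (SE 0.21, adjusted p = 0.00657). SLC7A11, the cystine importer, had 0.87 in 15 of 19 fits. PRDX1, a peroxiredoxin, lay among the lower calls at -0.39 (adjusted p = 0.0154), with 12 of 19 fits and -0.06 at its nearest to 0. The antioxidant response element core, TGAC and GC with 3 bases between them, occurred in 4 of 13 matched members (30.8%), against 16.1% of tested genes.

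In the integrated stress response, which curbs translation initiation, ATF4 induces genes that supply amino acids and charged tRNA. Its targets had 13 of 28 higher and 0 lower, with a median of 0.46 (5 to 16 higher without 1 library; 7, 10 and 19 higher and 1, 0 and 0 lower under the 3 other scalings). Leaving out 2 members that passed the filter only through FDX1-OE ES, 12 of 26 were higher. ATF3, a stress-induced transcription factor, read 0.127 and 0.0435 FPKM in control DMSO, 0.851 and 0.375 in control ES, 0.0474 and 0.0397 in FDX1-OE DMSO, and 5.14 and 6.08 in FDX1-OE ES. It was below 1 FPKM in the 6 other libraries and is one of those 2, so its interaction of 2.10 is a description. WARS1, the tryptophanyl-tRNA synthetase, is also induced by interferon; it read 31.4 and 29.1 FPKM in control DMSO, 51.2 and 53.8 in control ES, 27.1 and 30.2 in FDX1-OE DMSO, and 111 and 122 in FDX1-OE ES and had 1.21 (SE 0.11, adjusted p = 0.00145). ATF5, a transcription factor of the mitochondrial stress response, had 0.98, with 3 gene models that overlap it. The ATF4 core, TGATG and AA with 1 base between them, was found for 6 of 24 matched members (25.0%) and 2.03% of tested genes.

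Of 18 tested p53 targets, 3 were called higher (16.7%, against 13.9% of all genes) and 1 lower (5.56%, against 5.06%), shares near the background, with a median of 0.14 against 0.15 (1 to 5 higher and 0 to 2 lower without 1 library). Under the 3 other scalings 1, 1 and 5 were higher and 1, 1 and 0 lower, with medians of -0.05, 0.02 and 0.26. CDKN1A, the cyclin-dependent kinase inhibitor p21, read 0.225 and 0.189 FPKM in control DMSO, 0.933 and 0.720 in control ES, 0.381 and 0.434 in FDX1-OE DMSO, and 5.47 and 7.06 in FDX1-OE ES. It is 1 of 2 members that passed the filter only through FDX1-OE ES, and its interaction of 1.76 is a description. GADD45A, a DNA damage response protein, had 0.61 in 10 of 19 fits and AEN, an apoptosis-enhancing nuclease, -0.39 in 12. Autophagy and lysosome genes had 7 of 22 higher and 0 lower with a median of 0.28 (3 to 11 without 1 library; 4, 5 and 12 under the 3 other scalings, with medians of 0.07, 0.24 and 0.41). The 7 were 31.8% of those tested, against 13.9% of all genes. SQSTM1, the cargo receptor p62, read 43.2 and 41.8 FPKM in control DMSO, 46.5 and 49.4 in control ES, 40.8 and 43.4 in FDX1-OE DMSO, and 88.1 and 112 in FDX1-OE ES, an interaction of 1.05 (SE 0.15, adjusted p = 0.0056), with an antisense overlap to MRNIP. MAP1LC3B, which coats autophagosomes, had 0.57 and OPTN, another cargo receptor, 0.89. In the BCL2 family, regulators of mitochondrial apoptosis, 5 of 14 were higher and 0 lower with a median of 0.32 (2 to 5 higher and 0 to 3 lower without 1 library; 2, 5 and 6 higher and 1, 0 and 0 lower under the 3 other scalings). The leading members were the BH3-only proteins BMF (0.90), PMAIP1 (0.69) and BCL2L11 (0.58, 13 of 19 fits).

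Among 25 tested NF-kB subunits and targets, ES called 2 higher and 2 lower in control cells (median effect -0.16) and 19 higher and 2 lower in FDX1-OE cells (median 0.46). Over all genes, ES called 6.74% higher and 1.00% lower in control cells (median 0.09). In FDX1-OE cells it called 47.1% of all genes higher and 13.7% lower (median 0.25). In the interaction 16 of 25 tested members were called higher and 0 lower, with a median interaction of 0.71 (6 to 21 higher without 1 library; 11, 14 and 19 under the 3 other scalings); without 3 members that passed the filter only through FDX1-OE ES, 13 of 22 were higher. The NF-kB site GGGA and TTTCC with 1 base between them, on either strand of the 250 bases before the start, occurred for 7 of 20 matched members (35.0%), against 0.685% of tested genes, 0.645% of all genes in the table and 1.71% of genes called higher. The share in the list reflects how the list was made. NFKBIA, the inhibitor IkB-alpha that NF-kB induces as its own feedback, is shown (chr14:35404750-35404999, minus strand) because its ES effect changed sign; capitals mark 1 match on the opposite strand.
NFKBIA: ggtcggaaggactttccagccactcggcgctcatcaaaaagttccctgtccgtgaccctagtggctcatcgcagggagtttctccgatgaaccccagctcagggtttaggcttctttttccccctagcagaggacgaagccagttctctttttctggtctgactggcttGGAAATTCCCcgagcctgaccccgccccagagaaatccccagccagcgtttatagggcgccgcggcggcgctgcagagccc

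NFKBIA read 60.1 and 61.6 FPKM in control DMSO, 41.5 and 44.6 in control ES, 52.9 and 49.3 in FDX1-OE DMSO, and 74.2 and 87.1 in FDX1-OE ES. Its ES effects, both called, were -0.49 in control cells and 0.64 in FDX1-OE cells, so that control ES was the lowest and FDX1-OE ES the highest group. The interaction was 1.14 (SE 0.12, adjusted p = 0.00208). Adding the separate effects would give 36.0 FPKM in FDX1-OE ES.

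Of the called genes, 8 had called ES effects of opposite sign in the 2 cell types, and 6 of these have names that the naming rule allows. CD83, a surface protein of activated B cells, read 64.9 and 58.6 FPKM in control DMSO, 43.3 and 50.8 in control ES, 59.8 and 60.4 in FDX1-OE DMSO, and 78.4 and 83.2 in FDX1-OE ES, with 0.81 (SE 0.12, adjusted p = 0.00695). LTA, the cytokine lymphotoxin alpha, read 84.9 and 86.7 FPKM in control DMSO, 69.9 and 64.9 in control ES, 77.2 and 79.0 in FDX1-OE DMSO, and 93.8 and 109 in FDX1-OE ES, with 0.71 (SE 0.11, adjusted p = 0.00739). Both are known NF-kB targets and followed the pattern of NFKBIA; neither has a match to the letters above in its RefSeq windows. KLF10, a transcription factor induced by TGF-beta, fell in control cells and rose in FDX1-OE cells (0.58, 12 of 19 fits). In the other direction, CD52, a small surface glycoprotein of lymphocytes, rose by 0.39 in control cells and fell by 0.288 on the log2 scale in FDX1-OE cells (-0.68, 13 of 19 fits), and CKS2, a cofactor of cyclin-dependent kinases, rose by 0.26 and fell by 0.192 (-0.46, 16 of 19 fits). CD52 read 22.1 and 22.2 FPKM in control DMSO and 28.2 and 29.2 in FDX1-OE DMSO. That DMSO difference of 0.36, which did not pass the test, makes up much of its interaction.

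Further NF-kB genes were CCL22, a chemokine, with 1.62 and 4.57 and 5.004 FPKM in FDX1-OE ES against at most 1.24 elsewhere, and the subunit NFKB1. NFKB1 read 37.4 and 36.8 FPKM in control DMSO, 32.4 and 31.3 in control ES, 32.6 and 33.0 in FDX1-OE DMSO, and 41.6 and 43.2 in FDX1-OE ES, with 0.57 (SE 0.08, adjusted p = 0.0062). Its control ES libraries were the lowest of the 8 and its FDX1-OE ES libraries the highest.

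Some genes called in the interaction had a called ES effect in control cells that was smaller in size in FDX1-OE cells. They lie among the 23 genes called against the direction of the control effect. Genes with a smaller effect but no called interaction were not counted. C22orf34 read 6.28 and 6.33 FPKM in control DMSO, 0.630 and 0.930 in control ES, 5.93 and 6.45 in FDX1-OE DMSO, and 3.62 and 3.63 in FDX1-OE ES: it fell by 2.04 in control cells and by 0.636 in FDX1-OE cells on the log2 scale, an interaction of 1.41 (SE 0.15, adjusted p = 0.00209). LGALS1, the lectin galectin-1, read 65.2 and 57.7 FPKM in control DMSO, 109.9 and 138 in control ES, 71.2 and 73.2 in FDX1-OE DMSO, and 68.9 and 92.1 in FDX1-OE ES. It rose in control cells (1.00), the effect in FDX1-OE cells was 0.14 (adjusted p = 0.43), and the interaction was -0.86 (SE 0.21, adjusted p = 0.0268) in 13 of 19 fits. The chemokine CCL3L3, which has near-identical copies, had 1.16 in 11 fits, and the antisense RNAs SRP54-AS1 and USP2-AS1 had -0.90 and -0.81 in 13 fits each. DMSO differences of 0.51 for SRP54-AS1 and 0.44 for USP2-AS1, which did not pass the test, make up much of their interactions.

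Immediate early genes, which respond to growth signals within minutes, were called both ways, 5 of 20 higher and 3 lower, with a median of 0.13 (2 to 7 higher and 1 to 3 lower without 1 library; 2, 3 and 6 higher and 3, 2 and 2 lower under the 3 other scalings, with medians of -0.06, -0.09 and 0.25); 1 of the 5 had passed the filter only through FDX1-OE ES. As shares, 25% were higher and 15% lower, against 13.9% and 5.06% of all genes. DUSP5, a phosphatase of ERK, had 1.22 (SE 0.16, adjusted p = 0.00482), with 11.9 and 14.3 FPKM in FDX1-OE ES against 4.34 to 6.17 elsewhere. DUSP2, another MAP kinase phosphatase, fell in both cell types, by 0.828 and 1.56 on the log2 scale, an interaction of -0.73 (SE 0.13, adjusted p = 0.0104). EGR1, a zinc finger transcription factor, read 26.3 and 22.4 FPKM in control DMSO, 10.7 and 6.60 in control ES, 46.7 and 33.0 in FDX1-OE DMSO, and 6.35 and 6.25 in FDX1-OE ES. Both ES groups were low and close together, and the 2 DMSO groups differed by 0.67, which did not pass the test but makes up much of its interaction of -1.05 (SE 0.30, adjusted p = 0.0457); it was called in 8 of 19 fits.

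Endoplasmic reticulum chaperones had 1 of 20 called higher and 4 lower with a median of 0.01 (0 to 4 higher and 1 to 7 lower without 1 library; 1, 1 and 5 higher and 6, 3 and 2 lower under the 3 other scalings). The shares were 5% higher and 20% lower, against 13.9% and 5.06% of all genes. SDF2L1, which assists folding of secreted proteins in the endoplasmic reticulum, read 42.1 and 42.9 FPKM in control DMSO, 32.9 and 33.6 in control ES, 39.3 and 39.6 in FDX1-OE DMSO, and 12.1 and 12.6 in FDX1-OE ES. Replicates of each group nearly coincided, and FDX1-OE ES lay well below the other 6 libraries; the interaction was -1.26 (SE 0.08, adjusted p = 0.000453). HSPA5, the chaperone BiP, read 193 and 180.2 FPKM in control DMSO, 139.9 and 132 in control ES, 180.0 and 168 in FDX1-OE DMSO, and 82.1 and 65.1 in FDX1-OE ES, with -0.79 (SE 0.15, adjusted p = 0.0123) in 15 of 19 fits. XBP1, a transcription factor of the unfolded protein response, was the 1 called higher, at 0.71 in 14 fits. The endoplasmic reticulum stress element, CCAAT and CCACG with 9 bases between them, occurred for 7 of 19 matched chaperone genes (36.8%), HSPA5 among them but not SDF2L1, against 0.171% of tested genes.

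In the heat shock response, 1 of 19 tested members was called higher and 7 lower, with a median of -0.34 (3 to 12 lower without 1 library; 10, 5 and 5 under the 3 other scalings). HSPE1, the mitochondrial co-chaperonin of HSPD1, read 228 and 241 FPKM in control DMSO, 219 and 190.3 in control ES, 251 and 241 in FDX1-OE DMSO, and 112 and 99.9 in FDX1-OE ES. The ES effect in control cells was -0.20 (adjusted p = 0.173), and the interaction was -1.01 (SE 0.12, adjusted p = 0.00297); it overlaps HSPD1 and a read-through gene. The HSP90 co-chaperones AHSA1 and FKBP4 had -0.65 and -0.70. Proteasome subunits had 0 of 31 higher and 5 lower, with a median of -0.13 (1 to 10 lower without 1 library; 16, 1 and 1 under the 3 other scalings). PSMC1, a base ATPase, had -0.55, PSMA2 -0.32 in 8 fits and PSMA7 -0.54 in 9 fits, both subunits of the core ring. A DMSO difference of 0.32, which did not pass the test, makes up much of the interaction of PSMC1.

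**Figure D4:**
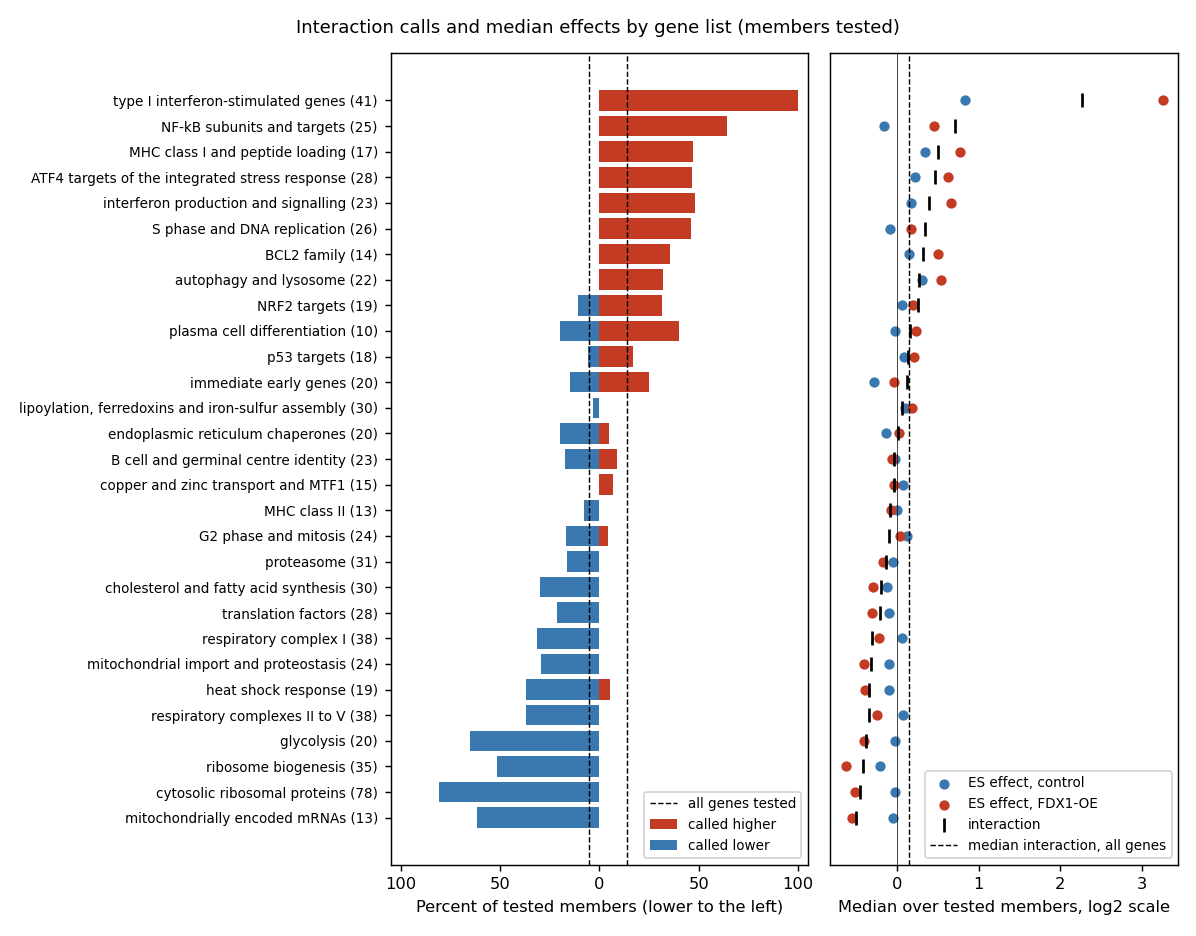
Left, percent of the tested members of each list called higher (right of 0) or lower (left of 0) in the interaction, with dashed lines at 13.9% and 5.06% for all genes tested; right, medians over tested members of the ES effect in control cells, the ES effect in FDX1-OE cells and the interaction, on the log2 scale. Lists with at least 10 tested members are shown, ordered by median interaction, from mitochondrially encoded mRNAs at -0.50 to interferon-stimulated genes at 2.26.

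The ribosome and its assembly formed the largest group of lower calls, as the plot by gene list shows. Of 78 cytosolic ribosomal protein genes, 63 were called lower and 0 higher, with a median of -0.45 against median ES effects of -0.03 in control and -0.51 in FDX1-OE cells. Both FDX1-OE ES libraries lay below the other 6 for 72 of the 78, against 14.4% of all genes. The count was 72 with median-ratio scaling, 44 at equal totals, 20 (and 1 higher) with quantile normalisation, 27 to 73 without 1 library, and 17 in every fit. RPL10A, of the large subunit, read 873 and 862 FPKM in control DMSO, 743 and 738 in control ES, 876 and 894 in FDX1-OE DMSO, and 467 and 451 in FDX1-OE ES. ES took it down slightly in control cells (-0.23, adjusted p = 0.0384) and the interaction was -0.72 (SE 0.07, adjusted p = 0.0017). RPL3 and RPL17 had -0.70 and -0.77. Many ribosomal protein genes have processed pseudogenes that can take or give reads.

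Ribosome biogenesis factors had 18 of 35 lower and 0 higher with a median of -0.41 (9 to 27 lower without 1 library; 26, 16 and 11 under the 3 other scalings). NOP16, a nucleolar protein of large subunit assembly, read 95.3 and 90.8 FPKM in control DMSO, 72.6 and 66.9 in control ES, 89.0 and 87.2 in FDX1-OE DMSO, and 34.2 and 29.9 in FDX1-OE ES, with -1.02 (SE 0.11, adjusted p = 0.00208) and an antisense overlap to HIGD2A. RRS1 and BOP1, also of the large subunit pathway, had -0.85 and -0.71. Translation factors had 6 of 28 lower and 0 higher with a median of -0.21 (2 to 13 lower without 1 library; 13, 3 and 5 under the 3 other scalings). EIF5A, which helps ribosomes past proline-rich stretches, had -0.50 in 18 fits, the elongation factor EEF2 -0.48 in 16 fits, and the initiation factor subunit EIF3K -0.65.

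Nuclear-encoded complex I, which oxidises NADH, had 12 of 38 lower and 0 higher with a median of -0.31 (3 to 19 lower without 1 library; 19, 12 and 8 under the 3 other scalings). NDUFB8 read 85.3 and 86.0 FPKM in control DMSO, 85.9 and 88.9 in control ES, 101 and 91.8 in FDX1-OE DMSO, and 46.4 and 54.9 in FDX1-OE ES. The 6 other libraries spanned a narrow range, FDX1-OE ES lay below it, and the interaction was -0.95 (SE 0.12, adjusted p = 0.00411). NDUFA13 and NDUFS5 had -0.60 and -0.61, NDUFA13 with overlapping gene models. Complexes II to V had 14 of 38 lower and 0 higher with a median of -0.34 (4 to 24 lower without 1 library; 27, 10 and 7 under the 3 other scalings). ATP5F1D, the delta subunit of ATP synthase, read 116 and 113 FPKM in control DMSO, 92.4 and 96.8 in control ES, 120.3 and 119.9 in FDX1-OE DMSO, and 43.1 and 52.5 in FDX1-OE ES, with -1.05 (SE 0.12, adjusted p = 0.00294). ATP5MC1, of the rotating ring of ATP synthase, had -0.79 and COX6B1, of cytochrome c oxidase, -0.70.

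Of the 13 mitochondrially encoded mRNAs, 8 were called lower and 0 higher, with a median of -0.50. The count depended on the scaling and on single libraries: 10 with median-ratio scaling, 6 at equal totals, 1 with quantile normalisation, where the median was -0.03, and 1 to 12 without 1 library. MT-CO1, the catalytic subunit of cytochrome c oxidase, read 12577 and 12294 FPKM in control DMSO, 10604 and 9823 in control ES, 12350.2 and 12587 in FDX1-OE DMSO, and 6938 and 5643 in FDX1-OE ES. FDX1-OE ES was lowest, and the interaction of -0.71 (SE 0.14, adjusted p = 0.0144) was called in 12 of 19 fits. MT-CO2 had -0.73 in 17 fits. It is the gene with the highest FPKM in all 8 libraries, so quantile normalisation gives it the same value in each and sets its interaction to 0.00 by construction. MT-ND4L, which overlaps MT-ND4, rose in control cells (0.38), read 7392 and 6075 FPKM in FDX1-OE ES against 7692 and 7782 in FDX1-OE DMSO, and had -0.59 in 11 of 19 fits, which became 0.14 with quantile normalisation. Mitochondrial import and proteostasis had 7 of 24 lower and 0 higher with a median of -0.32 (2 to 13 lower without 1 library; 15, 9 and 4 under the 3 other scalings), among them the import chaperone TIMM13 (-0.84) and the HSP90 paralogue TRAP1 (-0.38, 13 fits).

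Glycolysis had 13 of 20 lower and 0 higher with a median of -0.38 (3 to 17 lower without 1 library; 16, 7 and 9 under the 3 other scalings). PGK1, phosphoglycerate kinase, read 86.5 and 87.2 FPKM in control DMSO, 85.3 and 81.8 in control ES, 88.5 and 93.6 in FDX1-OE DMSO, and 52.9 and 49.1 in FDX1-OE ES. Control cells showed no called ES effect (-0.06, adjusted p = 0.6), and the interaction was -0.77 (SE 0.09, adjusted p = 0.00263). HK2, the first enzyme of the pathway, had -0.78, and ENO1, enolase, -0.57 in 18 fits; all 3 overlap other gene models. Cholesterol and fatty acid synthesis had 9 of 30 lower and 0 higher with a median of -0.20 (3 to 13 lower without 1 library; 13, 7 and 6 under the 3 other scalings). FASN, fatty acid synthase, read 101 and 98.5 FPKM in control DMSO, 72.9 and 67.1 in control ES, 101 and 96.5 in FDX1-OE DMSO, and 40.9 and 41.8 in FDX1-OE ES. It fell with ES in both cell types, and further in FDX1-OE cells, with -0.73 (SE 0.09, adjusted p = 0.00311). FDFT1, squalene synthase, had an interaction of -0.54.

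**Figure D5:**
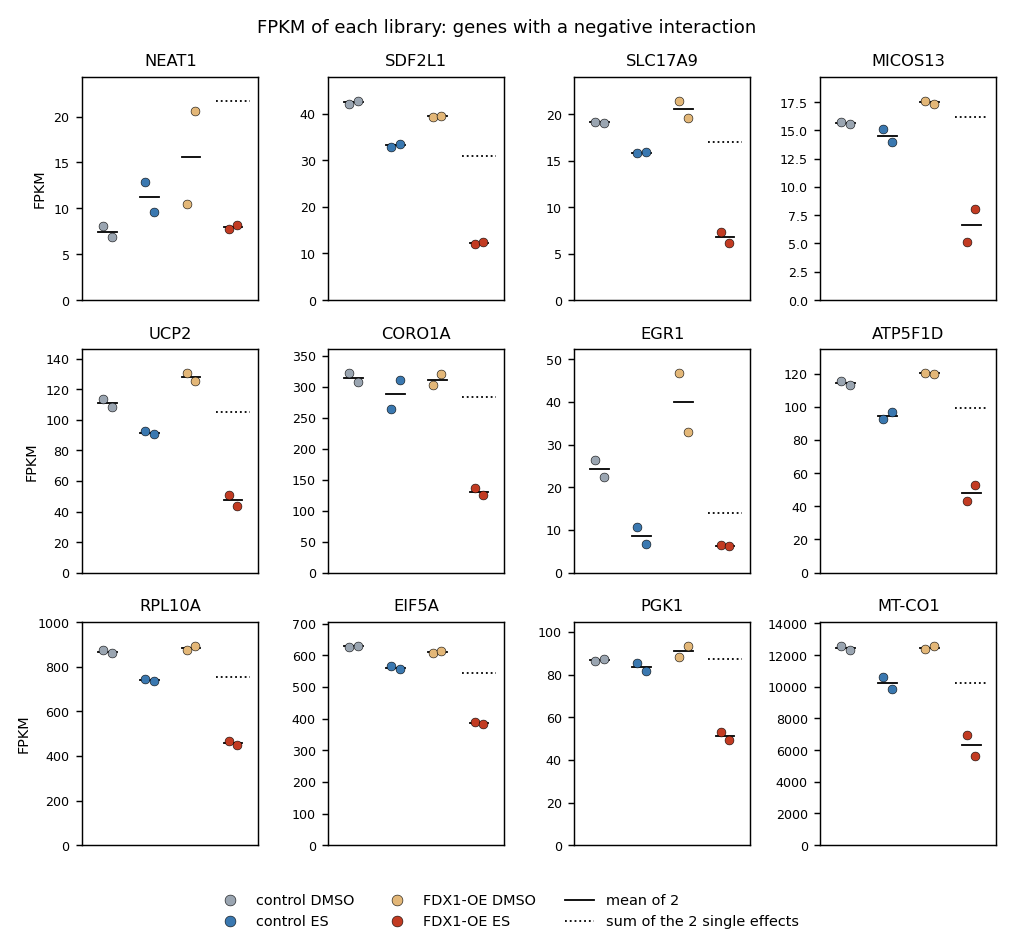
FPKM of each library (points, 2 per group) for 12 genes with a negative interaction, with the mean of each group (solid line) and, for FDX1-OE ES, the level that the sum of the separate log2 effects would give (dotted line); each vertical axis starts at 0. Both FDX1-OE ES points lie below the dotted line in all 12, NEAT1 and EGR1 differ in DMSO between the cell types, and the FDX1-OE DMSO libraries of NEAT1 lie at 10.5 and 20.6.

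Among named genes with a mean log2 level of at least 3, the largest negative interactions outside these lists belonged to genes of varied function. Negative interactions of genes at lower levels were not ranked. Over all tested genes, called or not, the lowest interaction was -5.57. SLC17A9, a vesicular nucleotide transporter, read 19.2 and 19.1 FPKM in control DMSO, 15.8 and 15.9 in control ES, 21.5 and 19.6 in FDX1-OE DMSO, and 7.35 and 6.19 in FDX1-OE ES, with -1.22 (SE 0.13, adjusted p = 0.00184). UCP2, an inner mitochondrial membrane carrier, read 114 and 109 FPKM in control DMSO, 92.6 and 90.4 in control ES, 131 and 125 in FDX1-OE DMSO, and 50.9 and 43.8 in FDX1-OE ES, with -1.14 (SE 0.11, adjusted p = 0.00145). CORO1A, an actin-binding protein of blood cells, read 322 and 307 FPKM in control DMSO, 264 and 311 in control ES, 303 and 320.3 in FDX1-OE DMSO, and 136 and 125 in FDX1-OE ES, with -1.12 (SE 0.12, adjusted p = 0.00209). In each of the 3 both FDX1-OE ES libraries lay below the other 6. MICOS13, which shapes mitochondrial cristae, had -1.21 (SE 0.22, adjusted p = 0.0113) in 17 fits. SLC27A5 (a bile acid and fatty acid CoA ligase), HAGHL (related to the glyoxalase HAGH), RELL2 and NME3 (a nucleoside diphosphate kinase) had -1.13, -1.08, -1.05 and -1.04. CCDC78 and SNHG4 (a snoRNA host that overlaps MATR3) had -1.15 and -1.15, the latter in 13 fits. Of these, CORO1A, SLC27A5, RELL2, NME3 and CCDC78 have an antisense neighbour that overlaps them. The long noncoding RNA NEAT1, the scaffold of paraspeckles, had the most negative interaction among named genes with a mean log2 level of at least 3, -1.35 (SE 0.37, adjusted p = 0.0385), but it was called in 8 of 19 fits: its FDX1-OE DMSO libraries read 10.5 and 20.6 FPKM, and a DMSO difference of 0.91 enters its interaction.

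S phase and DNA replication genes had 12 of 26 higher and 0 lower with a median of 0.34 (5 to 17 higher without 1 library; 5, 10 and 16 under the 3 other scalings). The 12 were 46.2% of those tested, against 13.9% of all genes. CCNE2, cyclin E2 of the G1 to S transition, read 10.8 and 12.1 FPKM in control DMSO, 15.7 and 16.5 in control ES, 11.4 and 10.2 in FDX1-OE DMSO, and 42.7 and 47.2 in FDX1-OE ES, with 1.501 (SE 0.13, adjusted p = 0.000894) and antisense overlaps. RRM2, a subunit of ribonucleotide reductase, had 0.78 (SE 0.08, adjusted p = 0.00168), and CLSPN, the checkpoint adaptor claspin, 0.70. G2 phase and mitosis had 1 of 24 higher and 4 lower with a median of -0.10 (0 to 4 higher and 2 to 8 lower without 1 library). That is 4.17% higher and 16.7% lower, beside 13.9% and 5.06% of all genes. Under the 3 other scalings 0, 1 and 1 were higher and 8, 3 and 2 lower. The difference between these 2 lists was not tested. CCNB1, cyclin B1, read 92.5 and 90.5 FPKM in control DMSO, 91.6 and 89.6 in control ES, 97.7 and 96.9 in FDX1-OE DMSO, and 59.0 and 47.3 in FDX1-OE ES, with -0.85 (SE 0.13, adjusted p = 0.00732). CDC20, an activator of the anaphase-promoting complex, had -0.65, and MKI67, the 1 called higher, 0.39 in 12 fits. TXNIP, an arrestin-like inhibitor of glucose uptake and thioredoxin, read 6.46 and 6.76 FPKM in control DMSO, 9.15 and 10.7 in control ES, 6.08 and 5.69 in FDX1-OE DMSO, and 25.2 and 27.0 in FDX1-OE ES and had 1.46 (SE 0.13, adjusted p = 0.00106).

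B cell and germinal centre identity had 2 of 23 higher and 4 lower with a median of -0.03 (0 to 5 higher and 0 to 8 lower without 1 library). The shares were 8.70% higher and 17.4% lower, against 13.9% and 5.06% of all genes, whose median was 0.15. Under the 3 other scalings 0, 1 and 5 were higher and 8, 2 and 1 lower, and in every fit 0 of either. BCL6, the repressor that defines germinal centre B cells, read 123 and 125 FPKM in control DMSO, 109 and 111 in control ES, 128 and 129.5 in FDX1-OE DMSO, and 90.6 and 88.0 in FDX1-OE ES, with -0.35 (SE 0.07, adjusted p = 0.0179) in 12 fits. MEF2B, which activates BCL6, had -0.37 in 13 fits and BLK, a kinase of the B cell receptor, 0.50 in 11. Plasma cell differentiation had 4 of 10 higher and 2 lower with a median of 0.16 (2 to 5 higher and 1 to 4 lower without 1 library; 3, 3 and 5 higher and 4, 1 and 1 lower under the 3 other scalings, with medians of -0.04, 0.14 and 0.30). That is 40% higher and 20% lower, beside 13.9% and 5.06% of all genes. IRF4, a transcription factor of plasma cells, read 1.92 and 1.75 FPKM in control DMSO, 2.84 and 3.25 in control ES, 1.54 and 1.55 in FDX1-OE DMSO, and 5.84 and 7.30 in FDX1-OE ES, with 1.06 (SE 0.17, adjusted p = 0.00814), and the surface receptor SLAMF7, which passed the filter only through FDX1-OE ES, had 1.01. The lowest of the list was SSR4, a translocon-associated protein with an antisense overlap, which read 26.0 and 20.3 FPKM in FDX1-OE ES and 42.5 to 54.99 elsewhere, with -1.14 (SE 0.18, adjusted p = 0.00805).

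All 6 B cell markers were expressed in every library: of these 0 were called higher and 1 lower with a median of -0.05, CD79B at -0.39 in 8 fits, with CD22 at -0.29 (adjusted p = 0.0584) and PAX5 at 0.33 (adjusted p = 0.0749), and their summed level was 1461 to 1498 FPKM in the 6 other libraries and 1391 and 1355 in FDX1-OE ES. Of 15 T and NK cell markers 2 were tested and 0 called (median -0.04), with 7 at 0 in all 8 libraries and a sum of 74.9 to 88.8 FPKM across the 8, nearly all of it TRAC (0.14, adjusted p = 0.247), beside CD247 (-0.22, adjusted p = 0.393). Of 12 myeloid markers AIF1 alone was tested and not called (-0.20, adjusted p = 0.59), 3 were at 0 throughout, and the sum was 1.75 to 2.47 FPKM in the DMSO libraries, 3.93 and 5.25 in control ES, and 4.99 and 7.51 in FDX1-OE ES. AIF1 gave 2.88 and 4.33 FPKM of the sums in FDX1-OE ES. Of 11 epithelial and fibroblast markers 2 were tested and 0 called (median 0.02), with 2 at 0 throughout; VIM, which lymphoid cells also express, had 0.55 (adjusted p = 0.114) and DCN -0.51 (adjusted p = 0.0853). Their sum was 25.1 to 30.4 FPKM in DMSO, 45.8 and 56.3 in control ES, and 70.4 and 99.0 in FDX1-OE ES. Nearly all of it was VIM, at 69.2 and 97.6 FPKM in FDX1-OE ES. The part of these sums in the results was not tested.

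Level, on which both the filter and the fit draw, and exonic length are given as a description, with no test. Genes called higher had a median log2 level of 3.07 and a median exonic length of 4116 bases, genes called lower 5.67 and 1940 bases, and all tested genes 3.35 and 3333 bases (GENCODE 29, 97.2% of tested rows matched). In the 3016 genes with the highest level, 9.25% were called higher and 14.4% lower. In the 2933 shortest genes 7.26% were higher and 10.5% lower, and in the 2932 longest 19.2% and 1.16%. The part of level and length in the list results was not tested.

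Other gene models overlap further named genes, so their reads are uncertain in the same way: NEAT1, CD52, SRP54-AS1, SLC7A11, PRDX1, FKBP4, CDKN1A, MEF2B, BCL6, BLK, RPL17, RRS1, NDUFB8, TIMM13, TRAP1, GCSH, FDFT1, RRM2, CLSPN, BMF, BCL2L11, PSMC1, PSMA2, OPTN, VIM, CD79B, CD22 and PAX5.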

How the data were processed

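Gene expression was measured by RNA sequencing (total RNA, VAHTS Universal V6 kit, per the labels' protocols) in 8 libraries of WSU-DLCL2 cells, 2 per group, grouped by source name. Values deposited by the authors were treated as FPKM: no header names the unit, which was read from the values (not whole, sums that differ between libraries). HISAT2, HTSeq, R 3.2.0 and hg19 appear in the submitters' processing notes, without roles. The absolute depth is unknown, so no counting error is given; the commonest low values place the relative depths within 1.18 of each other. Strand handling is not given in the sources used here.

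From these FPKM, log2(FPKM + 1) was fitted with limma 3.58.1 in R 4.3.3 on 4 group means over all 8 libraries, with empirical Bayes variances that follow the mean and no further scaling. The contrast was (FDX1-OE ES minus FDX1-OE DMSO) minus (control ES minus control DMSO), two-sided, with Benjamini-Hochberg adjustment over 12063 rows and a threshold of 0.05. The fit was tested on simulated data with the same spread for all genes of a group and no added shift in library totals. It does not show how the fit behaves where genes differ in spread or totals shift. Changes of low genes are understated on this scale. Of 1059 rows that share a symbol, 38 were tested and none is named.

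The members and lists were chosen with earlier results of these data known. Named are FDX1; up to 15 genes with the largest positive and 15 with the largest negative interaction among called genes of mean log2 level of at least 3; up to 8 of lower level; up to 6 with opposite called ES effects; up to 6 with a smaller ES effect in FDX1-OE; and up to 3 members of each list by p; genes so chosen that are not reported here stay in the counts and medians. Clone, small RNA and read-through names were passed over (6, 1, 2 and 7 in the positive, negative, opposite and smaller ranks). All 34 lists are described in the text by counts and medians. Alternatives were 2 pseudocounts (0.1 and 0.5), 2 filters, 3 scalings, group weights, no trend, a replicate block and 8 fits without 1 library. Lengths and overlaps come from GENCODE 29 (GRCh38), promoters from RefSeq GRCh38.p14; as the files name hg19, no gene coordinates are given beside expression values.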

Additional observations from a re-analysis of the deposited data

Results flagged for a closer look

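The ES effect differed between FDX1-OE and control cells in 2291 genes by the limma test of the difference itself, and the genes ranked highest in that test are flagged here with their interactions on the log2(FPKM + 1) scale. With 1 sign in every one of the 19 fits there were 413. Among genes of mean log2 level of at least 3, the most positive reported were IRF7 (2.70), MT1G (2.13), SP110 (2.00), OAS3 (2.00), PLSCR1 (1.81), OAS1 (1.72), MT1H (1.71), MT2A (1.70), ISG15 (1.68), EIF2AK2 (1.65), TRIM22 (1.56), STAT2 (1.52), CCNE2 (1.501) and TXNIP (1.46). The most negative of that level were NEAT1 (-1.35), SDF2L1 (-1.26), SLC17A9 (-1.22), MICOS13 (-1.21), SNHG4 (-1.15), CCDC78 (-1.15), UCP2 (-1.14), SSR4 (-1.14), SLC27A5 (-1.13), CORO1A (-1.12), HAGHL (-1.08), RELL2 (-1.05), ATP5F1D (-1.05), EGR1 (-1.05) and NME3 (-1.04). At lower levels the most positive were MX1 (3.81), XAF1 (3.56), MX2 (3.35), IFI44L (3.29), USP18 (3.13), IFITM1 (2.998), IFI44 (2.99) and RSAD2 (2.98). Of these, MX2 and IFI44L passed the filter on low values only through FDX1-OE ES. Opposite called effects in the 2 cell types were seen for NFKBIA (1.14), CD83 (0.81), LTA (0.71), CD52 (-0.68), KLF10 (0.58) and CKS2 (-0.46), and an ES effect in control cells that was smaller in FDX1-OE cells for C22orf34 (1.41), CCL3L3 (1.16), SRP54-AS1 (-0.90), LGALS1 (-0.86) and USP2-AS1 (-0.81). Groups of 2 libraries are too small for a test of single outlying libraries.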

How the results depend on the processing

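Each of 18 alternatives changed 1 choice. Calls numbered 1339 with no filter on low values, 1400 with quantile normalisation and 3868 at equal FPKM totals, and 535 to 3462 without 1 library. Higher calls numbered 1029 with no filter, 617 with median-ratio scaling, 686 with quantile normalisation and 3466 at equal totals, and 363 to 2457 without 1 library. Lower calls numbered 310 with no filter, 1297 with median-ratio scaling and 402 at equal totals, and 172 to 1072 without 1 library. Calls of the same sign and larger in FDX1-OE cells numbered 1035 with no filter, 1074 with quantile normalisation and 3210 at equal totals, and 463 to 2860 without 1 library; calls of opposite sign numbered 215 with no filter and 653 at equal totals, and 70 to 769 without 1 library. No filter means more rows tested, and a fit without 1 library has fewer samples; for the scalings the cause was not tested.

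The replicate block gave 1922 calls, 71.3% of them higher, and changed the call of 3 of the 132 named genes. Same-numbered libraries did not deviate together (correlations of their deviations from -0.05 to 0.08), so no shared replicate effect was seen. With 2 libraries per group this cannot decide whether the numbers pair the samples. The interaction of FDX1 became -0.080 and that of TRAC -0.065 with median-ratio scaling, MT-ND4L 0.14 and MT-CO2, which that scaling sets to 1 value in all libraries, 0.00 with quantile normalisation, and AIF1 ranged from -0.43 to 0.025 without 1 FDX1-OE ES library; of these MT-CO2 and MT-ND4L were called as described in the report. Of the 132, the number that lost the call ranged from 22 to 30 without 1 library outside FDX1-OE ES and was 12 with quantile normalisation, 6 with median-ratio scaling and 27 with no filter. The depth is unknown, and 2 libraries per group limit the precision of every value.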
